A study of Mus musculus with 8 samples.

Results

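The 9 myelin genes *Mbp*, *Mag*, *Mog*, *Mobp*, *Cnp*, *Cldn11*, *Mal*, *Ugt8a* and *Ermn* were read from the raw gene counts of the mouse ventral hippocampus. They were chosen by symbol as genes of mature, myelinating oligodendrocytes, and each symbol matched 1 Ensembl identifier among the 50686 in the table. All 9 had reads in every library and all 9 were among the 16018 genes that passed the filter on low counts. The animals were 8-week-old male mice, housed in groups of 4, with the strain written as C57B6/J in the sample labels. Vehicle was injected into 4 mice (replicates 1 to 4) and corticosterone, the main glucocorticoid (GC) hormone of rodents, into 4 mice (replicates 5 to 8) at 3 mg/kg, and all were killed 3 h later. Each library held the whole ventral hippocampus of 1 mouse, without any sort of cell types. In such bulk tissue, fewer cells of a type and less RNA per cell cannot be told apart.

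Myelin is the multilayered membrane that oligodendrocytes wrap around axons in the central nervous system, where it insulates them and speeds up conduction. Its proteins have different places in the sheath. Some glue the compacted layers together, some sit in the uncompacted loops and at the contact with the axon, and others seal the layers or face the outside. Myelin is also rich in galactolipids, which need their own synthetic enzymes. Transcription of these genes in the oligodendrocyte lineage is known to depend on SOX10 and, in maturing cells, on MYRF (myelin regulatory factor). In the hippocampus, myelin is found mainly in the alveus, the fimbria and the perforant path.

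Promoter sequence from RefSeq (GRCm38.p6) was matched for 8 of the 9 members, all but *Mbp*. The 200 bases that end 51 bases before the RefSeq start were searched on both strands for the MYRF words CTGGCAC and CTGGTAC and for the SOX word ACAAAG. MYRF words were found in 3 of the 8 windows, against 4.83% of all 32851 promoter windows of that length. The SOX word was also in 3 of the 8, against 13.6% of all windows. The windows of the genes with a MYRF word, and of *Mobp*, which held the most SOX words, are shown because these are the factors named above, whose own transcripts are described further on. Capitals mark the MYRF word in the first 3 sequences and the SOX word in that of *Mobp*, either in the printed direction or as its reverse complement, and each is written 5′ to 3′ on the strand of its gene.
Mag, chr7:30914914-30915113, minus strand: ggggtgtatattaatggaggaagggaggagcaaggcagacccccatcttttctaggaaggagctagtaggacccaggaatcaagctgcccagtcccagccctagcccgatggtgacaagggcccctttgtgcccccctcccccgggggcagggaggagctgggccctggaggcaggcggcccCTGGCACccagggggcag
Mog, chr17:37023449-37023648, minus strand: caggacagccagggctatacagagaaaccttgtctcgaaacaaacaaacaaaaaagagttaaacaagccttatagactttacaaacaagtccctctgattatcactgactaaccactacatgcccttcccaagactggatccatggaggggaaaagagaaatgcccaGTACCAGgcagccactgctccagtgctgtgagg
Cnp, chr11:100574689-100574888, plus strand: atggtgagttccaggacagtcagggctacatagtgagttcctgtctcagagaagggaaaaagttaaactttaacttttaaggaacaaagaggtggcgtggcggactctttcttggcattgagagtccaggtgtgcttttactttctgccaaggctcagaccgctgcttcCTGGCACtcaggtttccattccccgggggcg
Mobp, chr9:120149492-120149691, plus strand: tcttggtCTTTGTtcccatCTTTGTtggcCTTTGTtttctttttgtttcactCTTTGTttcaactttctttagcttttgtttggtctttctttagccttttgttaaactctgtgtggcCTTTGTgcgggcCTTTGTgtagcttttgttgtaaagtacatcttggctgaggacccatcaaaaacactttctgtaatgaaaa

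The MYRF word began 68 bases before the start in *Mag*, 83 in *Mog* and 81 in *Cnp*. The *Mobp* window held 6 SOX words, and *Mag* and *Cnp* held 1 each. None of the marked words overlapped another. The 6-base word AGAACA, which is only a part of the glucocorticoid response element, was in 0 of the 8 windows, against 13.2% of all windows, and TATAAA in 0 of 8, against 9.14%. The word CCAAT was in 2 of 8 (*Cldn11* and *Ermn*), against 28.4%. These matches describe the letters of a short window only.

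The members lie at separate loci of the GRCm38 genome, and all 9 are annotated as protein coding. *Mbp* (ENSMUSG00000041607) lies on the plus strand of chromosome 18 from 82475146 to 82585637. *Mag* (ENSMUSG00000036634) is on the minus strand of chromosome 7 from 30899176 to 30914873, and *Mog* (ENSMUSG00000076439) is on the minus strand of chromosome 17 from 37010743 to 37023398. *Mobp* (ENSMUSG00000032517) spans 120149707 to 120181484 on the plus strand of chromosome 9, and *Cnp* (ENSMUSG00000006782) spans 100574904 to 100591729 on the plus strand of chromosome 11. *Cldn11* (ENSMUSG00000037625) and *Ugt8a* (ENSMUSG00000032854) are both on chromosome 3, on the plus strand from 31149920 to 31164324 and on the minus strand from 125865271 to 125938619. *Mal* (ENSMUSG00000027375) and *Ermn* (ENSMUSG00000026830) are both on the minus strand of chromosome 2, from 127633226 to 127656695 and from 58045113 to 58052864. Exons of 3 members overlap those of another gene. *Mobp* shares 79 bp (1.15% of its exon length) with *Gm38642* on the same strand, *Cnp* shares 154 bp (4.23%) with *Dnajc7* on the opposite strand, and *Ermn* shares 237 bp (6.52%) with *Galnt5* on the opposite strand. The library was stranded, but the strand setting of the counting is not given in the sources used here, so reads in these stretches are uncertain.

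The comparison of corticosterone with vehicle asked whether transcripts of the sheath differed 3 h after the injection. None of the 9 members passed the test across all genes (edgeR quasi-likelihood test, Benjamini-Hochberg adjusted p under 0.05), a threshold that 0.00624% of all genes tested passed. Levels are given as CPM, read counts scaled by TMM and library size. The gene that passed was *Fkbp5*, a classic GC target, at 102 ± 15.7 CPM in vehicle and 173 ± 8.31 in corticosterone (SD, n = 4 each). At an unadjusted p under 0.05, 3 members were lower (*Mbp*, *Mag* and *Cnp*) and 0 were higher, against 4.52% lower, 4.51% higher and 9.03% in either direction over all genes tested. DESeq2 and limma-voom also called 0 members, with 1 member at an unadjusted p under 0.05 by DESeq2, against 5.39% of all genes, and 2 by limma-voom, against 9.21%. All 9 fitted log2 fold changes were below 0, with a median of -0.28 against 0.0036 over all genes tested. In 0 of 9 members did the values of the groups separate completely, against 3.66% of all genes tested (1.68% lower and 1.99% higher).

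Vehicle replicate 1 had the highest level of all 8 libraries for 9 of 9 members, whereas it was the highest library for 9.43% of all genes tested. Its level was between 1.21 times (*Mbp*) and 1.57 times (*Ugt8a*) that of the next vehicle library. Summed over the members, the level was 3889, 2987, 2610 and 2148 CPM in vehicle replicates 1 to 4 and 2808, 2045, 2103 and 2232 CPM in corticosterone replicates 5 to 8. *Mbp* was the largest part of this sum, with 1947 CPM in vehicle replicate 1. With each member given equal weight, the mean log2 deviation from the 8 libraries was 0.65, 0.18, -0.14 and -0.20 in vehicle. It was 0.04, -0.24, -0.20 and -0.09 in corticosterone. The 9 genes took 0.385% of the reads on genes in vehicle replicate 1 and between 0.206% and 0.304% in the other 7 libraries. Without vehicle replicate 1, the median log2 fold change of the members was -0.07 in place of -0.28, 0 members were called, and those of *Mobp* and *Mal* were above 0. For this reason, each gene is given below with all 8 values.

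**Figure D1:**
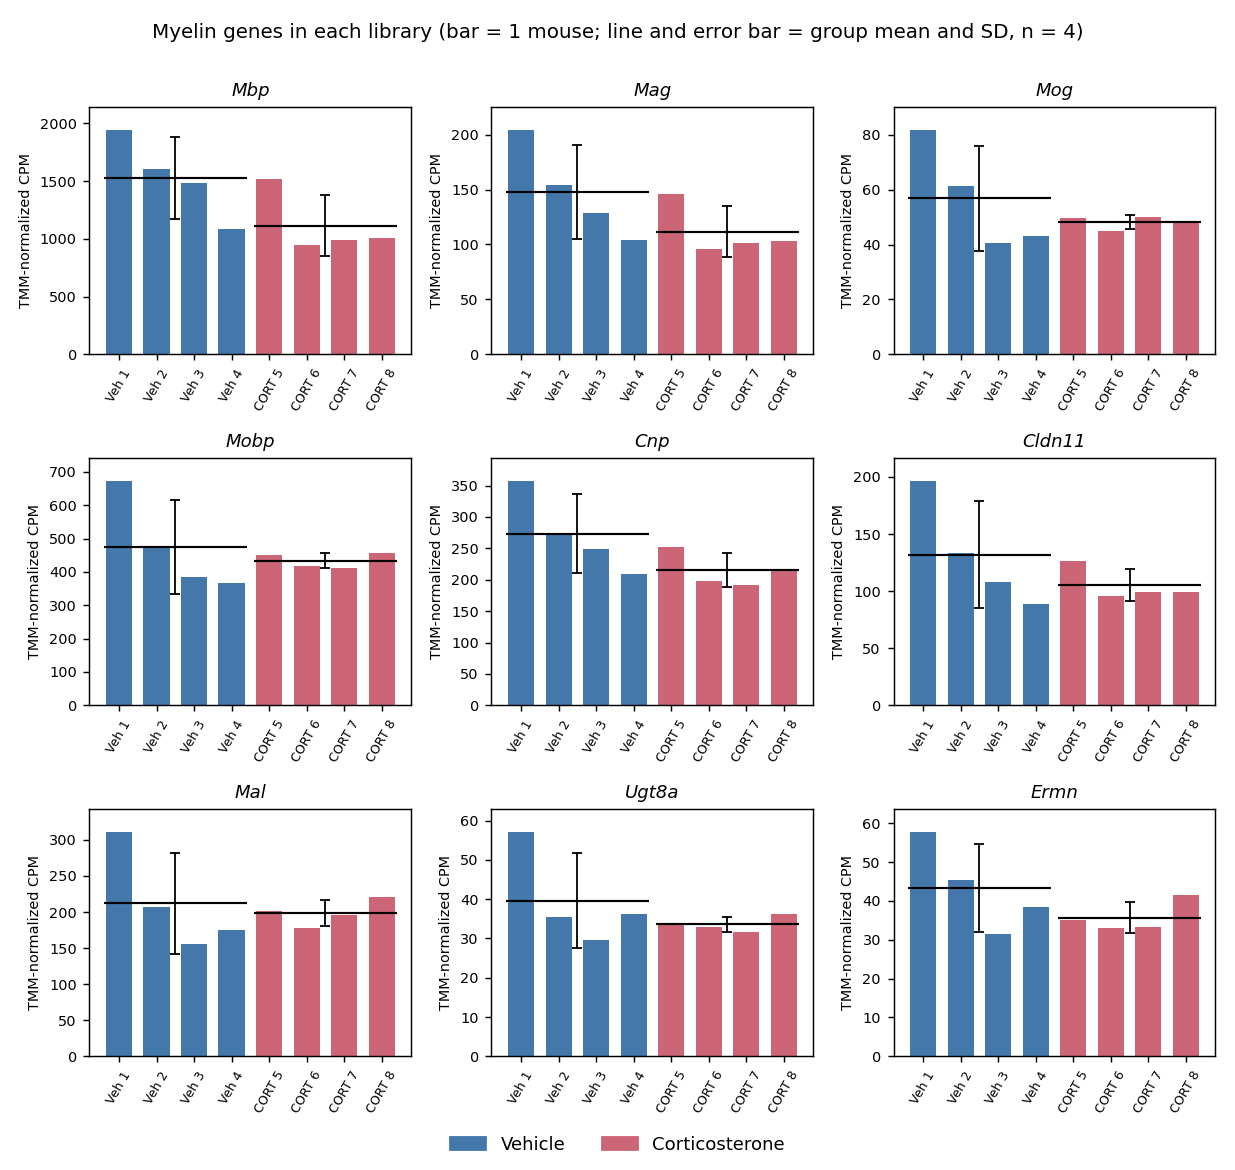
TMM-normalized CPM (linear axis from 0) of each of the 9 myelin genes in each library, where a bar is 1 mouse and the horizontal line with its error bar is the group mean and SD (n = 4). Vehicle replicate 1 is the highest bar in all 9 panels, and corticosterone replicate 5 stands above the other corticosterone libraries for *Mbp*, *Mag*, *Cnp* and *Cldn11*.

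Among genes of compact myelin, *Mbp* encodes myelin basic protein, which holds the cytoplasmic faces of the membrane layers together. *Mbp* stood at 1947, 1605, 1483 and 1084 CPM in vehicle replicates 1 to 4 and at 1514, 949.9, 989 and 1006 CPM in corticosterone replicates 5 to 8. Corticosterone replicates 6 to 8 lay below every vehicle library, whereas replicate 5 lay between vehicle replicates 2 and 3. The means were 1530 ± 356 and 1115 ± 267 CPM (SD, n = 4 each), with a log2 fold change of -0.46 (SE 0.17) and an edgeR adjusted p of 0.510. An exact two-sided permutation test over the 70 assignments of 4 against 4, whose smallest possible p is 0.0286, gave p = 0.0857. The log2 fold change of *Mbp* was -0.32 without vehicle replicate 1. Without corticosterone replicate 5 it was -0.64, and *Mbp* then passed the threshold (edgeR adjusted p = 0.0179), as did 10.2% of all genes tested in that fit.

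*Mobp* encodes myelin-associated oligodendrocyte basic protein, another small basic protein of the compact layers. Its level was 674, 471, 384 and 368 CPM in the vehicle libraries and 450.0, 417, 412 and 458 CPM in the corticosterone libraries. Vehicle replicates 3 and 4 were lower than all 4 corticosterone libraries, so the mean difference rested on vehicle replicate 1. The means were 474 ± 141 and 434 ± 23.3 CPM, with a log2 fold change of -0.13 (SE 0.15) and an edgeR adjusted p of 0.749. It was 0.09 (SE 0.09) without vehicle replicate 1.

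*Mal* encodes a proteolipid that travels in lipid-rich membrane domains to the sheath. *Mal* was measured at 312, 206, 155 and 175 CPM in vehicle and at 201, 178, 196 and 220.5 CPM in corticosterone. Apart from vehicle replicate 1, the highest library was corticosterone replicate 8. Group means of 212 ± 69.6 and 199 ± 17.4 CPM gave a log2 fold change of -0.09 (SE 0.17, edgeR adjusted p = 0.841), the smallest in size of the 9 members. With vehicle replicate 1 left out it was 0.15 (SE 0.11).

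Of the genes of the uncompacted parts of the sheath and of its cytoskeleton, *Mag* and *Cnp* were close to the pattern of *Mbp*, and *Ermn* was not. *Mag* encodes myelin-associated glycoprotein, an adhesion molecule on the innermost layer that faces the axon. *Mag* reached 205, 154, 128 and 104 CPM in vehicle and 146, 95.8, 101 and 104 CPM in corticosterone. Vehicle replicate 4 was level with the lower corticosterone libraries, and corticosterone replicate 5 exceeded vehicle replicates 3 and 4. The means were 148 ± 43.0 and 112 ± 23.3 CPM, the log2 fold change was -0.40 (SE 0.18, edgeR adjusted p = 0.545) and the exact permutation p was 0.171. The log2 fold change was -0.21 without vehicle replicate 1 and -0.56 without corticosterone replicate 5, and the latter passed the threshold (edgeR adjusted p = 0.0411).

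*Cnp* encodes 2′,3′-cyclic nucleotide 3′-phosphodiesterase, an enzyme that keeps cytoplasmic channels in the sheath open. Its vehicle values were 358, 275, 249 and 209 CPM and its corticosterone values 252, 198, 192 and 217 CPM. Only corticosterone replicates 6 and 7 were below all vehicle libraries. With means of 273 ± 62.9 and 215 ± 27.1 CPM, the log2 fold change was -0.35 (SE 0.14, edgeR adjusted p = 0.532; exact permutation p = 0.143). Leaving out vehicle replicate 1 gave a log2 fold change of -0.19 for *Cnp*, and leaving out corticosterone replicate 5 gave -0.43 (edgeR adjusted p = 0.0512).

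*Ermn* encodes ermin, a cytoskeletal protein of late oligodendrocyte differentiation. Its level was 57.9, 45.4, 31.6 and 38.6 CPM in vehicle and 35.1, 33.0, 33.2 and 41.7 CPM in corticosterone. Vehicle replicate 3 was the lowest of the 8 libraries. The log2 fold change was -0.28 (SE 0.15, edgeR adjusted p = 0.555) between means of 43.3 ± 11.2 and 35.7 ± 4.07 CPM. It was -0.11 without vehicle replicate 1.

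At the outer surface and between the layers, *Mog* encodes myelin oligodendrocyte glycoprotein, which faces the outside of the sheath, and *Cldn11* encodes claudin 11, which forms the tight junctions of myelin. *Mog* was at 81.9, 61.4, 40.7 and 43.2 CPM in vehicle and at 49.7, 44.8, 50.2 and 48.3 CPM in corticosterone. Its vehicle values spanned 2.01 times from the lowest to the highest, and its corticosterone values 1.12 times. The log2 fold change of *Mog* was -0.24 (SE 0.18, edgeR adjusted p = 0.629) between means of 56.8 ± 19.1 and 48.3 ± 2.43 CPM. Without vehicle replicate 1 it was -0.0096.

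*Cldn11* showed the widest spread within vehicle of the 9, 2.21 times from the lowest to the highest library. It stood at 197, 134, 108 and 89.0 CPM in vehicle and at 127, 95.5, 99.7 and 99.5 CPM in corticosterone. Vehicle replicate 4 was the lowest library of all. The means were 132 ± 47.0 and 105 ± 14.3 CPM, with a log2 fold change of -0.32 (SE 0.19, edgeR adjusted p = 0.575) that was -0.07 without vehicle replicate 1.

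*Ugt8a*, which encodes the enzyme that makes galactosylceramide, the main glycolipid of myelin, had the lowest level per exon length. *Ugt8a* had 57.2, 35.5, 29.5 and 36.3 CPM in vehicle and 33.4, 33.0, 31.6 and 36.3 CPM in corticosterone. Apart from vehicle replicate 1, the 7 libraries lay between 29.5 and 36.3 CPM with the groups intermixed. The log2 fold change was -0.24 (SE 0.16, edgeR adjusted p = 0.601), between means of 39.6 ± 12.1 and 33.6 ± 2.003 CPM, and without vehicle replicate 1 it was -0.01.

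**Figure D2:**
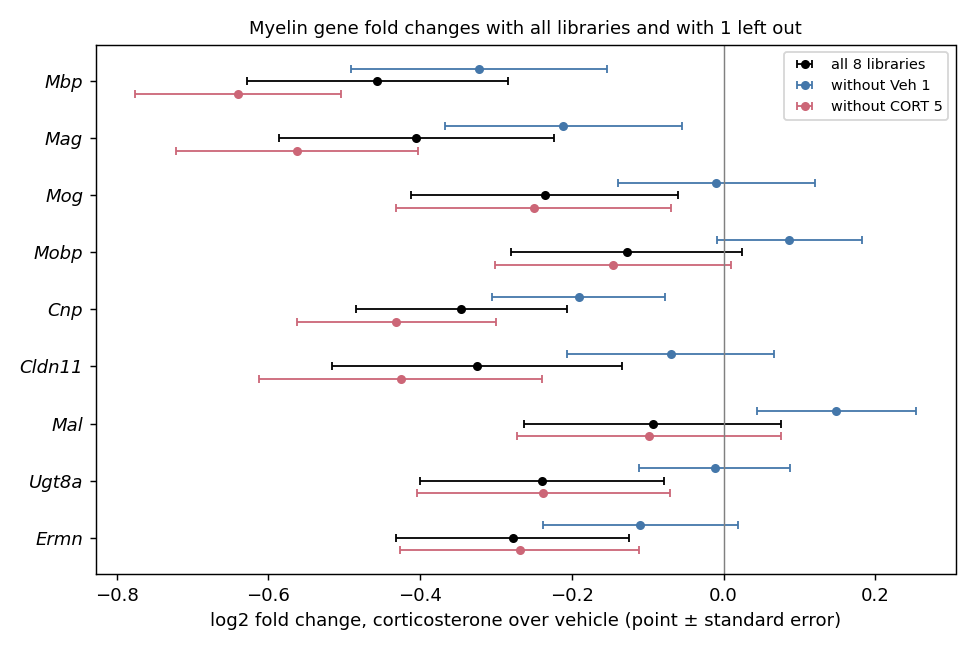
Log2 fold change of corticosterone over vehicle (point) with its standard error (bar) for each of the 9 genes, from the edgeR fit on all 8 libraries (black), without vehicle replicate 1 (blue) and without corticosterone replicate 5 (red). Without vehicle replicate 1 every point moves toward or past 0, to 0.09 for *Mobp* and 0.15 for *Mal*, and without corticosterone replicate 5 the points of *Mbp* and *Mag* move away from 0, to -0.64 and -0.56.

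Levels between genes can be compared only per length, as CPM per kb of exon. On that scale, *Mbp* was the highest at 156 ± 43.2 (SD over the 8 libraries). *Mal* (74.0 ± 17.1), *Cnp* (67.0 ± 15.0), *Mobp* (66.3 ± 13.99) and *Cldn11* (63.4 ± 18.8) followed, and these neighbours differed by less than their SDs. *Mag* (31.9 ± 9.18) and *Mog* (30.8 ± 7.87) were lower, again within 1 SD of each other. *Ermn* (10.9 ± 2.42) and *Ugt8a* (8.07 ± 1.91) were the lowest, with a gap larger than either SD. These SDs span both groups and include vehicle replicate 1. They describe the spread over libraries and do not measure the precision of a difference between genes read in the same libraries. The exon length here joins the exons of all annotated transcripts, 8469 bases for *Mbp*, so a gene with unused exons appears lower than it is.

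The members did not vary as a single block. On the log2 CPM scale, the Pearson correlation across the 8 libraries between 2 members ranged from 0.50 to 0.98 over the 36 pairs, with a median of 0.84. Without vehicle replicate 1 the range was -0.16 to 0.98 and the median 0.44. *Mbp*, *Mag* and *Cnp* kept correlations of 0.96 to 0.98 with each other over those 7 libraries, and *Cldn11* had 0.86 to 0.94 with these 3. By contrast, *Mbp* had -0.08 with *Mal* and -0.16 with *Ugt8a*. All points share their libraries, their depth and their scaling, and the values are given as descriptions.

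*Mbp* and *Mal*, a pair picked after the values were seen, had the lowest correlation over all 8 libraries (0.50). The ratio of *Mbp* to *Mal* on the CPM scale was 6.25, 7.77, 9.54 and 6.20 in vehicle and 7.54, 5.33, 5.05 and 4.57 in corticosterone. Corticosterone replicates 6 to 8 had lower ratios than any vehicle library, and replicate 5 was within the vehicle range. In deviations from the mean of the 8 libraries, *Mbp* was at 0.21 in vehicle replicate 3 and 0.24 in corticosterone replicate 5 on the log2 scale, and *Mal* was at -0.37 and -0.00 in the same libraries. In corticosterone replicate 8, *Mbp* was at -0.35 and *Mal* at 0.13.

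**Figure D3:**
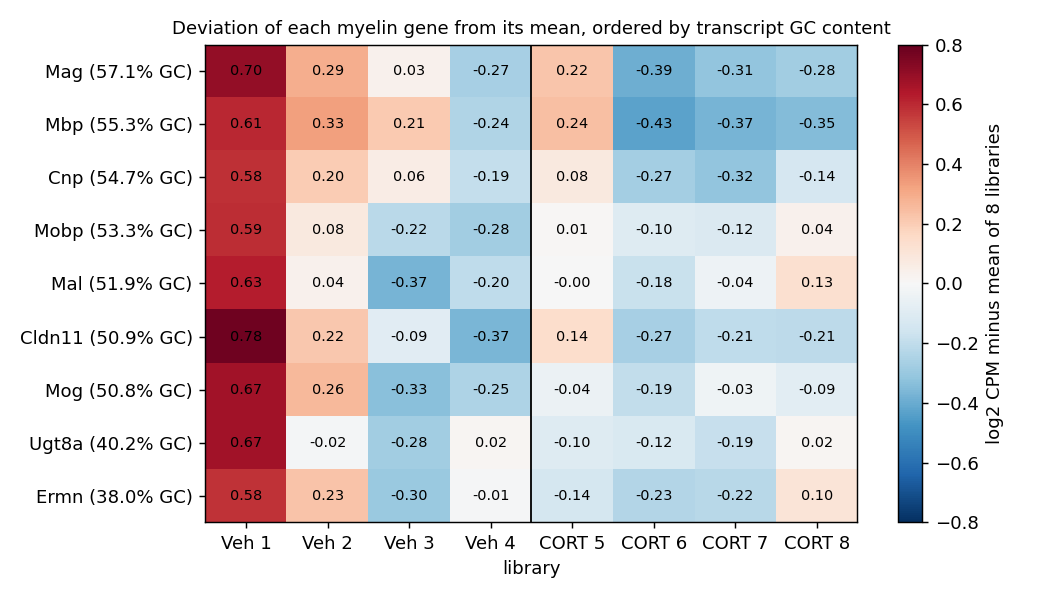
Log2 CPM of each gene minus its mean over the 8 libraries, as colour and number, with the genes ordered by the GC content of their transcripts (given in percent) and the groups divided by a line. The column of vehicle replicate 1 is positive for all genes, from 0.58 to 0.78, and *Mag*, *Mbp* and *Cnp* in the upper rows are above 0 in vehicle replicate 3 and corticosterone replicate 5 whereas *Ugt8a* and *Ermn* in the lowest rows are below 0 there.

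The libraries also differed in how counts followed base composition, here GC meaning guanine and cytosine. *Mag* (57.1%), *Mbp* (55.3%) and *Cnp* (54.7%) had the most GC-rich transcripts of the members, and *Ugt8a* (40.2%) and *Ermn* (38.0%) the least. Over all genes tested, the slope of the log2 deviation per 10 percentage points of GC was 0.063, 0.156, 0.188 and -0.087 in vehicle replicates 1 to 4 and 0.207, -0.195, -0.139 and -0.193 in corticosterone replicates 5 to 8. Over the 9 members, the slopes were 0.012, 0.071, 0.182 and -0.156 in vehicle and 0.167, -0.080, -0.040 and -0.156 in corticosterone, with the same sign as over all genes in each of the 8 libraries. These slopes rest largely on *Ugt8a* and *Ermn*, since the other members lay between 50.8% and 57.1% GC. The correlation behind them was weakest in vehicle replicate 1 (0.12) and corticosterone replicate 7 (-0.22). After removal of each library's dependence on GC content and transcript length, the log2 fold change was -0.40 for *Mbp*, -0.31 for *Mag* and -0.30 for *Cnp*, but -0.44 for *Ermn* and -0.37 for *Ugt8a*, and 0 of 9 members were called by edgeR with 5 at an unadjusted p under 0.05, against 0.131% and 9.02% of all genes in that fit. Vehicle replicate 1 remained between 0.56 (*Mobp*) and 0.78 (*Cldn11*) above the mean of the 8 libraries on the log2 scale after this removal. The share of ambiguous reads was 1.64% to 1.67% in vehicle replicates 1 to 3, 1.40% in vehicle replicate 4, 1.48% in corticosterone replicate 5 and 1.25% to 1.28% in the other 3. The share of reads that were not unique was 0.0699% to 0.111% in vehicle and 0.0420% to 0.0536% in corticosterone, so this measure separated the groups. The part of GC content and of these read shares in the differences between the groups was not tested.

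**Figure D4:**
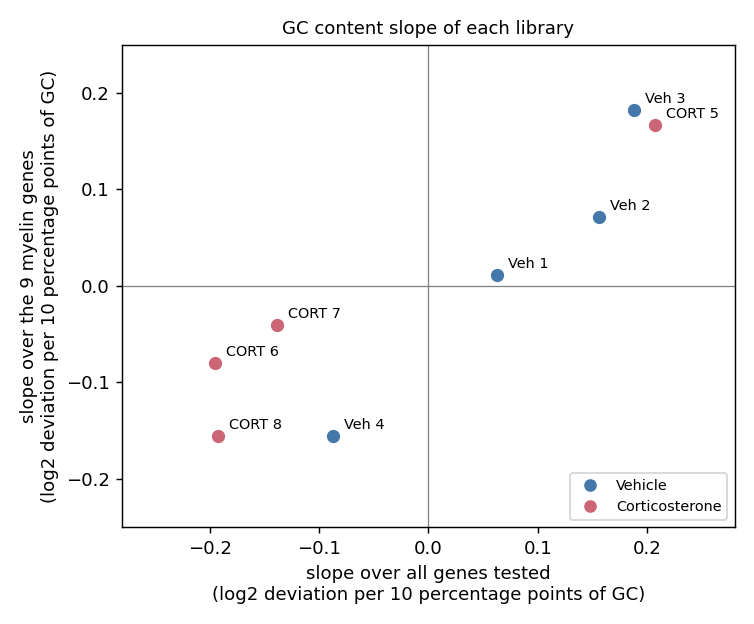
Slope of the log2 deviation on transcript GC content in each library, over all genes tested (horizontal axis) and over the 9 myelin genes (vertical axis), both per 10 percentage points of GC. Vehicle replicates 1 to 3 and corticosterone replicate 5 lie to the upper right of 0, and vehicle replicate 4 and corticosterone replicates 6 to 8 to the lower left.

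To set each member against a reference within its library, the median log2 CPM of 37 other myelin protein and lipid genes was subtracted. These genes were listed by a role in myelin, and the part of other cell types in their levels was not tested. The reference is thus not a measure of the amount of oligodendrocyte RNA. It followed the members only in part, since in vehicle replicate 1 the reference was 0.44 above its mean over the 8 libraries on the log2 scale and the mean of the members was 0.65 above. None of the 9 members then differed between the groups (exact two-sided permutation test over 70 assignments, smallest p = 0.143). *Mbp* had the lowest p, at 5.42 ± 0.19 in vehicle and 5.20 ± 0.19 in corticosterone (SD, n = 4 each), a difference of -0.22. *Mal* had a difference of 0.19 and *Mobp* one of 0.15 in the opposite direction (exact permutation p = 0.171 for each). In vehicle replicate 1, *Mbp* was at 5.47 on this scale, below the 5.59 of vehicle replicate 3. Set against oligodendrocyte transcription factors in place of the myelin genes, the difference of *Mbp* was 0.06, so its sign depended on the reference. The differences of *Mal* and *Mobp* were then 0.47 and 0.43 (exact permutation p = 0.0571 for each).

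The remaining genes of the sheath were given by lists. Of 25 other myelin protein genes tested, 23 had log2 fold changes below 0, with a median of -0.19, and vehicle replicate 1 was the highest library for 19. At an unadjusted p under 0.05, 8 were lower and 1 higher, against 4.52% and 4.51% of all genes tested, and edgeR called 0, against 0.00624%. *Tmem88b*, a transmembrane protein gene of oligodendrocytes, had the lowest p of the list, at 43.9, 36.5, 29.6 and 34.1 CPM in vehicle and 24.8, 20.7, 20.2 and 26.8 CPM in corticosterone. Its groups did not overlap, and the log2 fold change was -0.64 (SE 0.13, edgeR adjusted p = 0.200; DESeq2 adjusted p = 0.00360). *Opalin*, a sialylated glycoprotein of oligodendrocyte membranes, had a log2 fold change of -0.64 (edgeR adjusted p = 0.363) and *Gjb1*, which encodes connexin 32 of the gap junctions between layers, one of -0.58 (edgeR adjusted p = 0.442), and neither overlapped between the groups. Complete separation with lower values was thus seen for 3 of 25, against 1.68% of all genes tested. *Pllp*, which encodes plasmolipin, had a log2 fold change of -0.39 and overlapped.

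Among 12 genes of myelin lipids, 10 had log2 fold changes below 0, with a median of -0.12, 1 was lower at an unadjusted p under 0.05, against 4.52% of all genes tested, and edgeR called 0. That gene was *Gal3st1*, which encodes the sulfotransferase that turns the product of *Ugt8a* into sulfatide, with a log2 fold change of -0.62 (SE 0.25, edgeR adjusted p = 0.532). *Gal3st1* was at 8.499 CPM in corticosterone replicate 5, within the vehicle range of 6.60 to 8.72, and at 3.17, 3.62 and 4.68 CPM in the other 3. *Fa2h*, the fatty acid 2-hydroxylase of myelin galactolipids, had a log2 fold change of -0.22, *Aspa*, which releases acetate from N-acetylaspartate, -0.31, and *Smpd1*, a sphingomyelinase gene, -0.11, with edgeR adjusted p of 0.590, 0.605 and 0.647.

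The transcription factors of the lineage had the lowest median of the oligodendrocyte lists, -0.32 over 10 genes, with 4 lower and 0 higher at an unadjusted p under 0.05, against 4.52% and 4.51% of all genes tested, and 0 called by edgeR. *Sox10*, which acts throughout the lineage, was at 30.2, 39.6, 40.6 and 30.5 CPM in vehicle and at 31.0, 17.1, 14.1 and 19.8 CPM in corticosterone. Vehicle replicate 1 was the highest library for 6 of the 10 factors, and their sum was 405 CPM there and 235 to 341 CPM in the other 7 libraries. *Sox10* was not among the 6 and had its lowest vehicle value there. Its log2 fold change was -0.78 (SE 0.20, edgeR adjusted p = 0.313; DESeq2 adjusted p = 0.0305). *Nkx6-2* (-0.95), *Nkx2-2* (-0.76) and *Olig2* (-0.41), which encode homeobox and basic helix-loop-helix factors of the lineage, were the others, with edgeR adjusted p of 0.477, 0.510 and 0.530. *Myrf*, named outside the rule, stood at 68.2, 45.8, 47.8 and 37.4 CPM in vehicle and 52.6, 38.2, 36.9 and 40.2 CPM in corticosterone, with a log2 fold change of -0.24 (edgeR adjusted p = 0.598).

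Genes of oligodendrocyte precursors were divided in direction. Of 12 genes, 7 had log2 fold changes above 0 and 5 below, with a median of 0.02, 2 higher and 2 lower at an unadjusted p under 0.05, against 4.51% and 4.52% of all genes tested, and edgeR called 0. *Pdgfra*, the growth factor receptor that marks precursors, was at 51.6, 52.2, 51.02 and 52.6 CPM in vehicle and at 54.2, 64.0, 58.2 and 61.4 CPM in corticosterone, without overlap (log2 fold change 0.20, edgeR adjusted p = 0.499). *Vcan*, a matrix proteoglycan gene, had a log2 fold change of 0.25, and *Cspg4*, which encodes the precursor proteoglycan NG2, -0.37 (edgeR adjusted p = 0.529 for each). The other lower gene was *Olig2*, which is also in the list of transcription factors. Vehicle replicate 1 was the highest library for 5 of the 12, though not for *Pdgfra* or *Vcan*. The sum of the list was 438 CPM there and 349 to 397 CPM in the other 7 libraries. Among the 5 were *Bcas1*, at 116 CPM there against 66.1 to 85.0 CPM, and *Olig2*, at 43.7 against 19.3 to 29.5 CPM. *Enpp6* was at 13.3 CPM there against 5.01 to 8.30 CPM. The sum rests in good part on such genes, so it does not show that precursors as a cell type ran high in vehicle replicate 1.

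DESeq2 called 2 of the 58 genes of these 4 lists, *Tmem88b* and *Sox10*, both lower, against 0.374% of all genes it gave an adjusted p. Without corticosterone replicate 5, edgeR called 12 of the 58, 11 of them lower, against 10.2% of all genes tested in that fit. Calls over all 16181 genes of that fit also leaned lower, with 1047 lower and 604 higher.

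Markers of other cell types were read in the same libraries. Of the 5 Schwann cell genes, which would mark myelin of peripheral nerve, *Pmp2*, which encodes a fatty acid binding protein of peripheral myelin, had 0 reads in all libraries, whereas *Dhh* had 0 to 4, *Ncmap* 3 to 17 and *Prx* 5 to 16 reads per library. The summed level of 10 astrocyte genes ranged from 4626 to 5387 CPM in vehicle and from 4820 to 5116 CPM in corticosterone. That of 12 neuronal genes ranged from 7426 to 8286 CPM and from 7635 to 8054 CPM. Vehicle replicate 1 was the highest library for 0 of the 10 astrocyte genes, 0 of 8 microglial genes, 0 of 5 erythrocyte genes, 1 of 8 endothelial genes, 1 of 5 choroid plexus genes, 2 of 12 neuronal genes and 3 of 10 genes of the dentate and pyramidal fields. The choroid plexus sum was 69.4, 42.7, 27.02 and 23.4 CPM in vehicle and 72.4, 62.5, 34.2 and 47.5 CPM in corticosterone, so that its order within vehicle was that of the members' sum and its highest library was corticosterone replicate 5. The dentate and pyramidal sum was 1646 to 1948 CPM in vehicle, 1832 CPM in corticosterone replicate 5 and 1525 to 1547 CPM in the other 3. The microglial sum was 416 to 429 CPM in vehicle and 331 to 420 CPM in corticosterone, and the endothelial sum was 138 to 149 CPM and 120.0 to 133 CPM, without overlap between the groups. Single genes of these lists passed the threshold of DESeq2 but not that of edgeR. *Cx3cr1*, the fractalkine receptor gene of microglia, had a log2 fold change of -0.76 (DESeq2 adjusted p = 0.00026, edgeR adjusted p = 0.186), and *Gjb6*, which encodes connexin 30 of astrocytes, one of 0.44 (DESeq2 adjusted p = 0.0037, edgeR adjusted p = 0.196), both without overlap between the groups. Over the 10 astrocyte genes, 4 log2 fold changes were above 0 and 6 below, with a median of -0.03, and *Gja1*, which encodes connexin 43, was lower without overlap (-0.15). The part of these cell types in the values of the myelin genes was not tested.

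**Figure D5:**
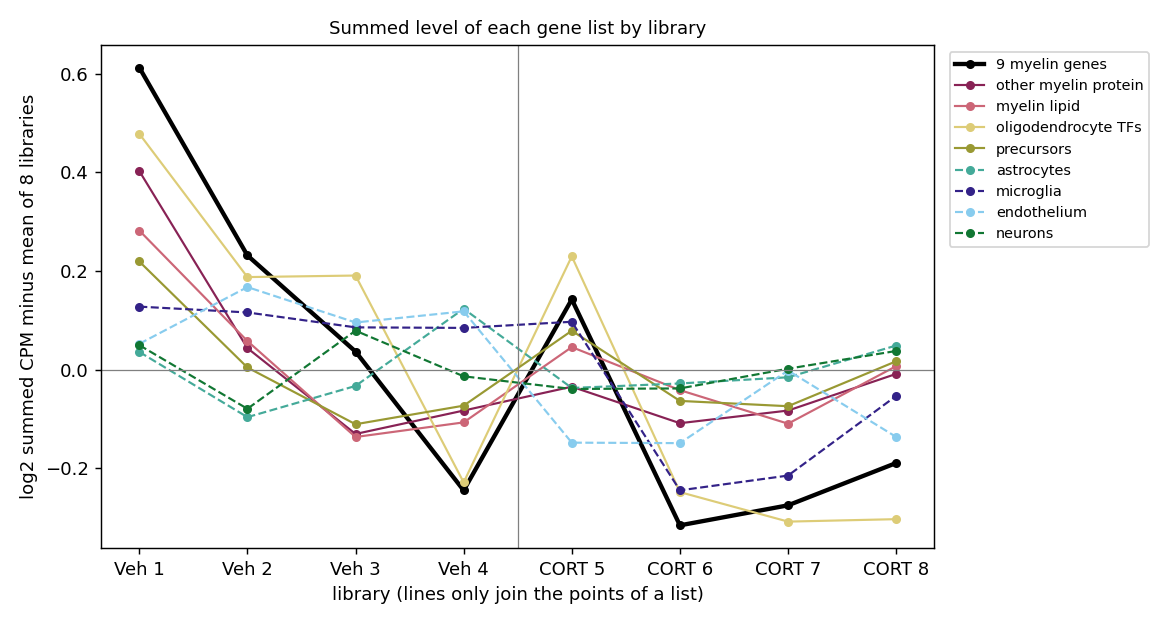
Log2 of the summed CPM of each gene list minus its mean over the 8 libraries, by library, where lines only join the points of a list. The 9 myelin genes (black) range from 0.61 in vehicle replicate 1 to -0.32 in corticosterone replicate 6, whereas astrocytes and neurons stay between -0.10 and 0.12. *Mbp* is the largest part of the sum of the 9.

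The genes outside the 9 whose log2 CPM was most like the mean of the members over the 8 libraries were *Fa2h* (Pearson r of 0.98), *Pde8a*, *Prr5l*, *Qdpr*, *Gpr37*, *Sept4*, *Plekhb1*, *Cd82*, *Prkcq* and *Cyp2j12* (0.96). *Fa2h*, *Gpr37*, *Plekhb1* and *Cd82* belong to the myelin lists above and the other 6 do not. With the group means removed, their r was between 0.96 and 0.99. *Qdpr*, which encodes dihydropteridine reductase, was at 184, 160, 138 and 128 CPM in vehicle and at 147, 122, 127 and 134 CPM in corticosterone. *Pde8a*, which encodes a cyclic AMP phosphodiesterase, was at 19.7, 14.3, 11.7 and 12.1 CPM in vehicle and at 13.1, 11.5, 12.5 and 12.2 CPM in corticosterone. As with the members, both had their highest value in vehicle replicate 1, and edgeR called 0 of the 10.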

How the data were processed

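Total RNA from the ventral hippocampus was enriched for mRNA, made into stranded libraries and sequenced as paired 100 bp reads on the DNBseq platform. Per the labels, mm10 was the genome build. Alignment was done by the authors with GSnap and counting by gene with HTSeq, and the raw counts were deposited as whole numbers, not normalized. Between 17492159 and 19931987 reads per library fell on genes (84.6% to 86.3% of the reads in the table). Rows that name no gene, among them reads outside any feature (5.40% to 5.89%), were kept out of all totals. Columns were matched to the 4 vehicle and 4 corticosterone mice by the sample labels, which name no batch. Symbols, coordinates and GC content came from GENCODE M21 on GRCm38, with 50462 of 50686 identifiers found.

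Counts were scaled with TMM and tested with the quasi-likelihood test of edgeR 4.0.16 (R 4.3.3) after filterByExpr, with Benjamini-Hochberg adjustment over all genes and a threshold of 0.05. CPM are TMM-normalized, and log2 values used a prior count of 2. The study's methods used DESeq2, and DESeq2 1.42.0 and limma-voom 3.58.1 were run as alternatives, with 2 other scalings, 2 other filters, robust dispersion, an adjusted p under 0.1 and each library left out in turn. Counting error is small at this depth (575 or more reads for each member in each library), so the spread between libraries sets the precision. Each library came from 1 mouse, so differences between mice, dissections and library preparations cannot be told apart.

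The members and the gene lists were chosen with earlier results of these data known. Named are the 9 members, up to 4 genes of each oligodendrocyte list with the smallest p, the 10 genes most like the members, *Fkbp5* and the listed genes past a threshold. *Myrf*, *Bcas1*, *Enpp6* and *Gja1* are named outside this rule. Other cell types are given by sums, or by reads for Schwann cell genes. Single genes not reported here still count within their lists. The single cell and ChIP-seq data of the study were not used here.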

Additional observations from a re-analysis of the deposited data

Results flagged for a closer look

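In 50 sets of 4 libraries, a sample was looked for whose gap to the nearest other exceeded the 95% critical value of Dixon's test, which chance gives in about 1 set in 20, or 2.5 sets here. There were 7 such values, 6 of them in corticosterone replicate 5. The sets are not independent, since all come from the same 8 libraries. *Mbp* was flagged both by its level and relative to other myelin genes. *Mbp*, *Mag* and *Cldn11* correlated with each other at 0.86 to 0.98 without vehicle replicate 1. A single library that differs can thus be flagged many times, and 7 against 2.5 cannot be read as an excess over chance.

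For 3 members, corticosterone replicate 5 stood above the other corticosterone mice. *Mbp* was at 1514 CPM in this library, and at 949.9 to 1006 CPM in the other 3. *Mag* was at 146 CPM against 95.8 to 104 CPM, and *Cldn11* was at 127 CPM against 95.5 to 99.7 CPM. Relative to the median of the 37 other myelin protein and lipid genes, *Mbp* was at 5.47 on the log2 scale in corticosterone replicate 5 and at 5.07 to 5.14 in replicates 6 to 8.

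The same library stood apart in measures over all genes. Its slope of the log2 deviation per 10 percentage points of GC was 0.207, whereas corticosterone replicates 6 to 8 had slopes of -0.195 to -0.139. Ambiguous reads made up 1.48% of this library and 1.25% to 1.28% of those 3. In vehicle, replicate 4 stood apart from its group with 1.40% ambiguous reads, against 1.64% to 1.67% in replicates 1 to 3. The part of these measures in the levels of *Mbp*, *Mag* and *Cldn11* was not tested.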

How the results depend on the processing

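The count of members called was 0 with all 8 libraries under every tool, scaling, filter and threshold tried. With a library left out it was between 0 and 2. Without corticosterone replicate 5 it was 2 (*Mbp* and *Mag*, with 10.2% of all genes called), and without both vehicle replicate 1 and corticosterone replicate 5, a setting chosen after seeing the data, it was 1 (*Mbp*, log2 fold change -0.50, edgeR adjusted p = 0.0264, with 6.88% of all genes called). The adjusted p of *Mbp* ranged from 0.0179 to 0.919 over 17 fits. The median log2 fold change of the members ranged from -0.39 without vehicle replicate 3 to -0.07 without vehicle replicate 1. With a library left out, the log2 fold change of *Mobp* ranged from -0.24 to 0.087 and that of *Mal* from -0.22 to 0.15, both above 0 without vehicle replicate 1, and the sign also changed for *Mobp* (0.07) and *Mal* (0.15) without both libraries. Of the 58 other oligodendrocyte genes, edgeR called 0, DESeq2 2 (0.374% of all genes called), edgeR without a filter on low counts 3 (0.287%), and edgeR with the trend of GC content and length removed, also chosen after seeing the data, 1 (0.131%). With a library left out, 0 to 12 were called, the 12 without corticosterone replicate 5 (10.2%), and without both libraries 10 (6.88%). With the oligodendrocyte transcription factors as the reference, the difference relative to other oligodendrocyte genes changed sign for *Mbp* (0.062), *Mag* (0.13), *Cnp* (0.19), *Cldn11* (0.25) and *Ermn* (0.27), and with the trend removed it did for *Ugt8a* (-0.12). With a library left out, small differences also changed sign. These were *Cldn11* (0.073 without vehicle replicate 1), *Mog* (-0.021) and *Ugt8a* (-0.025) without vehicle replicate 3, and *Ermn* (0.059 without corticosterone replicate 5). The cause of these changes was not tested. No paired analysis was possible because replicates 1 to 4 are vehicle and 5 to 8 corticosterone, with no number in common.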
